A study of Homo sapiens with 6 samples.

Results

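The genes described here encode the proteins of the cytosolic ribosome. They were taken by symbol as protein-coding genes named RPL or RPS with a number and an optional A, X or L ending, together with RPLP0, RPLP1, RPLP2 and RPSA. Kinases of the RPS6K family and pseudogenes were left out. The rule gave 84 of the 60612 genes in the count tables, 52 of the large and 32 of the small subunit, on 21 chromosomes. No measured value entered the rule.

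RNA was sequenced from SKBR3, an established HER2-positive breast cancer line of mammary epithelium in which ERBB2 is amplified. Of the 6 libraries, 3 came from cells labelled as having no treatment, called parental here. The other 3 came from SKBR3_HR cells, which had been kept under rising concentrations of the anti-HER2 antibody trastuzumab for 30 weeks and are called trastuzumab here. Both groups are forms of 1 cell line, and the labels do not say whether the drug was present at harvest. They also do not say that replicates were grown as separate cultures, so the p-values measure the spread between these libraries, which may be technical.

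A ribosome is built from ribosomal RNA and 1 copy of most ribosomal proteins, so the mRNAs of the small and the large subunit are usually made in parallel. Most of these mRNAs are short, very abundant and begin at a cytosine followed by a run of pyrimidines, the terminal oligopyrimidine (TOP) tract, through which mTOR signalling and LARP1 control their translation. A few ribosomal proteins have a second functional gene, a paralog copy, whose expression in many cases is restricted to certain tissues. Unassembled ribosomal proteins, RPL5 and RPL11 first among them, bind the ubiquitin ligase MDM2.

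The sequences around the annotated start sites are shown first because the tract is what most members share beyond the rule. They are read on the transcribed strand from the RefSeq start site table of GRCh38.p14, with 10 bases before the start and 20 bases from it. A tract was scored where the start itself was a C followed by at least 4 more bases that were C or T, on the transcribed strand alone, and its bases are in capitals. RPS27, RPS21 and RPS12 are among the members with the largest rises, RPLP1 belongs to the stalk, and RPS24 and RPL39 are members that did not pass the test.
RPS27, chr1:153990752-153990781, plus strand: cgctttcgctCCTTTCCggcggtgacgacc
RPS21, chr20:62387093-62387122, plus strand: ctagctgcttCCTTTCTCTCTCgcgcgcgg
RPS12, chr6:132814559-132814588, plus strand: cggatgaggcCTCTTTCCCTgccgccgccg
RPLP1, chr15:69452808-69452837, plus strand: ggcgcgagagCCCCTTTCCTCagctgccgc
RPS24, chr10:78033853-78033882, plus strand: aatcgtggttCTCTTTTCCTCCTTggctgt
RPL39, chrX:119791611-119791640, minus strand: ccgccagcttCCCTCCTCTTCCTTTCTCCg

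The same window is printed for the paralog pairs of members in which both genes were tested and are in the table, to show which of them have a tract. RPL22 and its copy RPL22L1 both had a tract. RPL26 and RPS27 had one, and RPL26L1 and RPS27L did not.
RPL22, chr1:6199576-6199605, minus strand: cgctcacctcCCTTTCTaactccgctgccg
RPL22L1, chr3:170870176-170870205, minus strand: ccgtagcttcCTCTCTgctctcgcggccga
RPL26, chr17:8383174-8383203, minus strand: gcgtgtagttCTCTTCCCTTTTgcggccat
RPL26L1, chr5:172958719-172958748, plus strand: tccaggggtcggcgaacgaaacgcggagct
RPS27L, chr15:63157458-63157487, minus strand: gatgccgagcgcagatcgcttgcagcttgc

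Of the 67 members with a start in the table, 47 had a tract at 1 or more annotated starts, or 70.1%. Among 15247 other protein-coding genes the share was 6.05%. Counted by start, it was 56.6% of 83 starts of members against 4.39% of 21492 starts of the other genes. Moved 100 bases upstream, the same search found 2.41% and 3.61%. The annotated starts decide this count. RPL19, the most abundant member, had no tract by this definition, because its annotated starts are not a C, although pyrimidines surround the second of them.
RPL19, chr17:39200313-39200342, plus strand: agctctttcctttcgctgctgcggccgcag

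Ribosomal protein mRNAs were higher in the trastuzumab libraries almost across the set. Of 83 members with enough counts to be tested, 71 rose, none fell and 12 did not pass the test (edgeR quasi-likelihood test, Benjamini-Hochberg adjusted p below 0.05 over 17854 genes). Over all tested genes 23.9% rose and 25.4% fell, 49.3% in all. The median log2 fold change of the members was 0.51, against -0.006 for all tested genes, and the members ranged from -0.64 to 0.91. At an unadjusted p below 0.05, 72 members were higher and 1 was lower. DESeq2 called 73 higher and limma-voom 71, and neither called any member lower.

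The shift was broad and modest in size. The trastuzumab libraries were at least 1.5-fold above the parental ones for 33 members, and no member passed 2-fold. All 3 trastuzumab libraries lay above all 3 parental libraries for 73 members, and below them for 2, RPL3L and RPS27L. Over all tested genes, 28.3% lay wholly above and 57.5% wholly above or below. Of the 875 other protein-coding genes of at least 200 CPM, 433 rose and 251 fell, so 49.5% rose. CPM is a gene's count per M counts of the library after TMM scaling, which aligns the typical gene between libraries. Of the 74 members at that level, 66 rose. The median log2 fold change of the 875 other genes was 0.11. After correction 328 of them rose and 302 fell, with 37.5% higher and a median of 0.01.

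**Figure D1:**
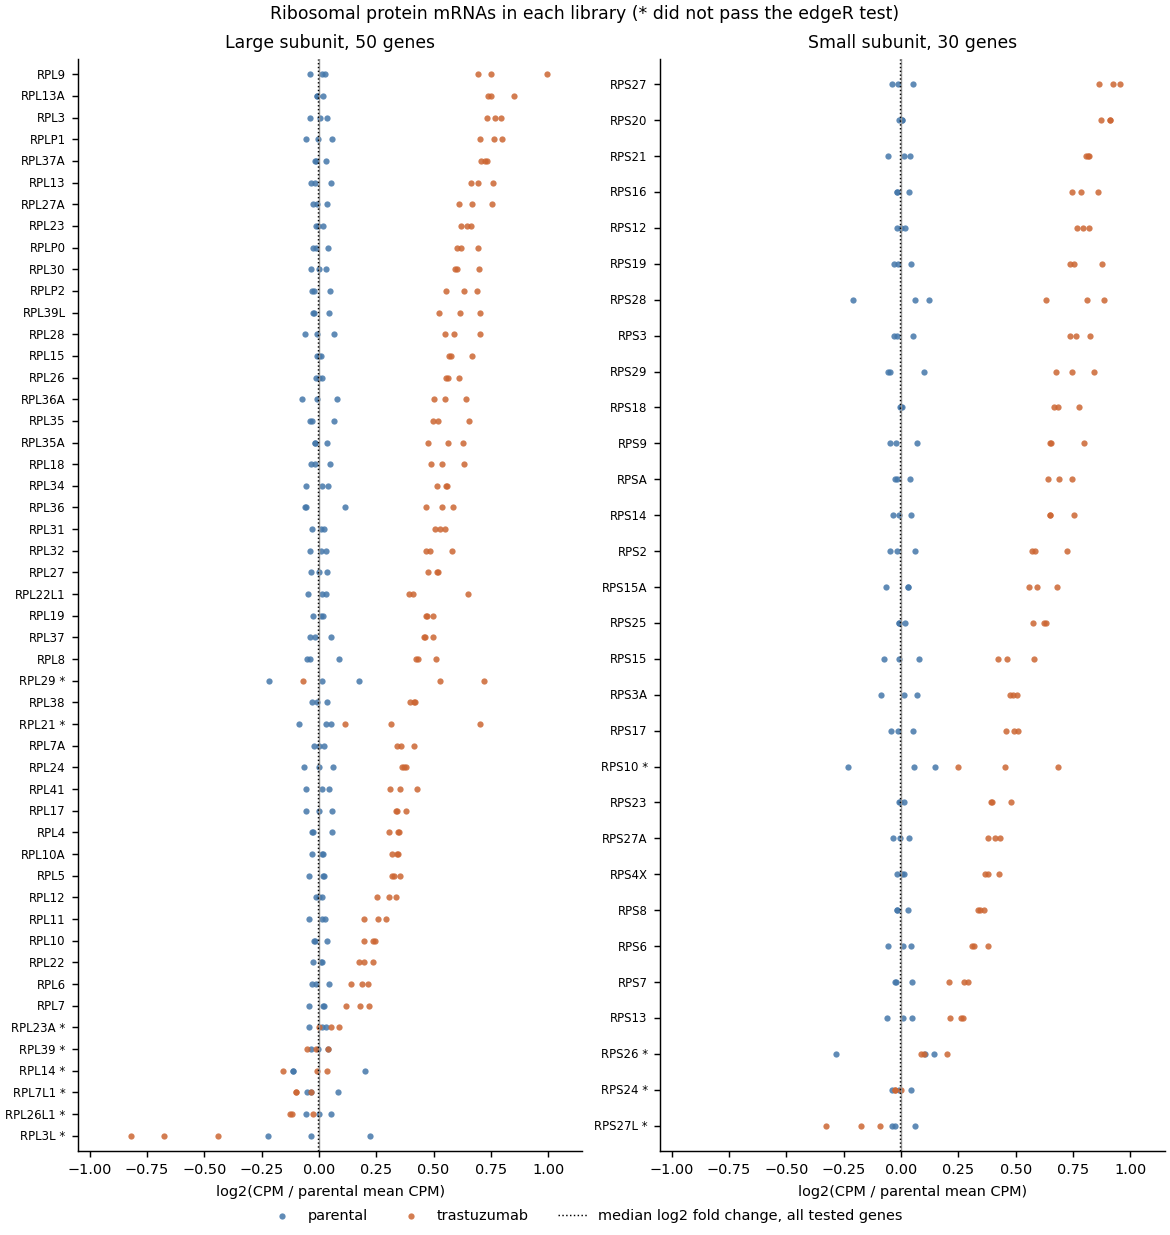
Level of tested members in each library, as log2 of the CPM over the parental mean CPM of that gene, for the 50 large-subunit and 30 small-subunit genes shown, sorted by fold change. Blue points are parental libraries, orange points trastuzumab libraries, the dotted line is the median log2 fold change of all tested genes (-0.006), and the 12 genes with a star did not pass the test.

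Fold changes in these libraries went with the base composition of genes, with a Spearman correlation of 0.50 between log2 fold change and GC content over 17649 genes, which are not independent replicates. A second fit, called the corrected fit, therefore removed from each library a trend on transcript GC content and exonic length before the same test. Exonic length counted all annotated exons of a gene, and GC content pooled all its annotated transcripts. The members' median exonic length was 3002 bases, against 709 bases for their principal transcripts. In the corrected fit 69 members rose and 1, RPL3L, fell, with 19.0% and 19.1% of all genes called in the respective directions. The members' median log2 fold change was 0.44, against -0.008 for all tested genes. In both fits 66 members rose, 5 rose only on the counts as deposited and 3 only after correction. The 5 were RPL8, RPL10, RPL10A, RPL12 and RPS15, and the 3 were RPS24, RPL7L1 and RPS27L. These names were chosen after their values were seen. Members had a median GC content of 49.8%, close to the 49.7% of all tested genes. Their own log2 fold changes had a Spearman correlation with GC content of 0.32 before and -0.51 after correction, as a description over 83 genes measured in the same libraries.

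**Figure D2:**
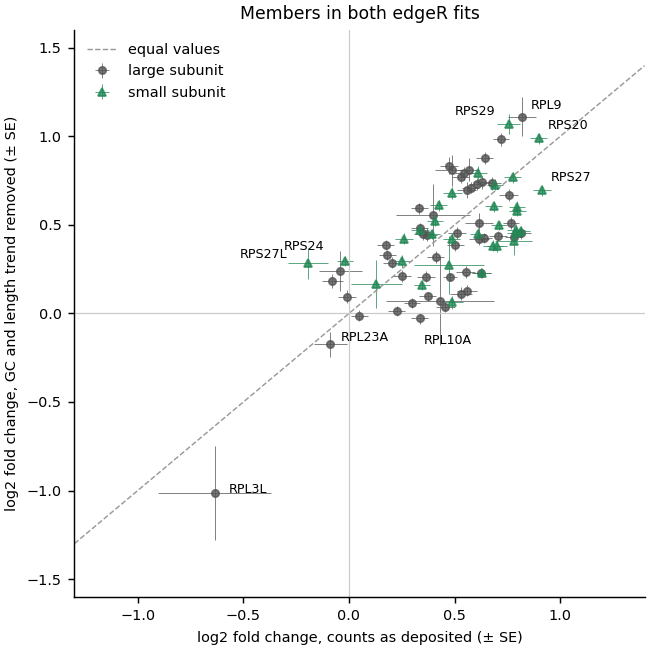
Log2 fold change (trastuzumab minus parental) of the 83 tested members on the counts as deposited (horizontal) and after removal of the GC and length trend (vertical), with standard errors as bars; circles are large-subunit genes, triangles small-subunit genes and the dashed line marks equal values. Most points lie above 0 on both axes, and RPL3L is the only member called lower in either fit.

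The members took 7.94, 7.83 and 7.89% of all counts in parental and 10.9, 11.1 and 10.9% in trastuzumab libraries. The groups did not overlap, and the ratio of their means was 1.39. In bulk RNA a larger share cannot be told apart from more RNA of these genes per cell, or from less of others. The share of mitochondrial genome counts moved the other way, from a mean of 3.94% ± 0.276 (SD, n = 3) to 2.56% ± 0.203 (SD, n = 3), and its part in the result was not tested.

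The share of the small subunit was 1.47 times as high in trastuzumab as in parental libraries, and that of the large subunit 1.34 times. Small-subunit genes held 3.07, 3.03 and 3.09% of counts in parental and 4.44, 4.59 and 4.47% in trastuzumab libraries. For the large subunit the shares were 4.87, 4.80 and 4.80%, then 6.41, 6.55 and 6.41%. The ratio of large to small was therefore 1.59, 1.58 and 1.55 in parental and 1.44, 1.43 and 1.43 in trastuzumab libraries, with no overlap between the groups. Its mean went from 1.58 ± 0.0197 to 1.44 ± 0.00856 (SD, n = 3 each), a factor of 0.911.

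RPL19, a protein at the rim of the exit tunnel, made up 14.5% of all member counts in parental libraries. Without it the ratio changed by nearly the same factor, 0.910, and on summed FPKM, which divides by gene length, by 0.874. By gene, 43 of 51 large-subunit and 28 of 32 small-subunit members rose, with median log2 fold changes of 0.49 and 0.62. After correction the counts were 40 and 29 and the medians were 0.42 and 0.46, so the gap between the subunits' medians was narrower there. No p-value is given for the ratio, because it is a score over the members.

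**Figure D3:**
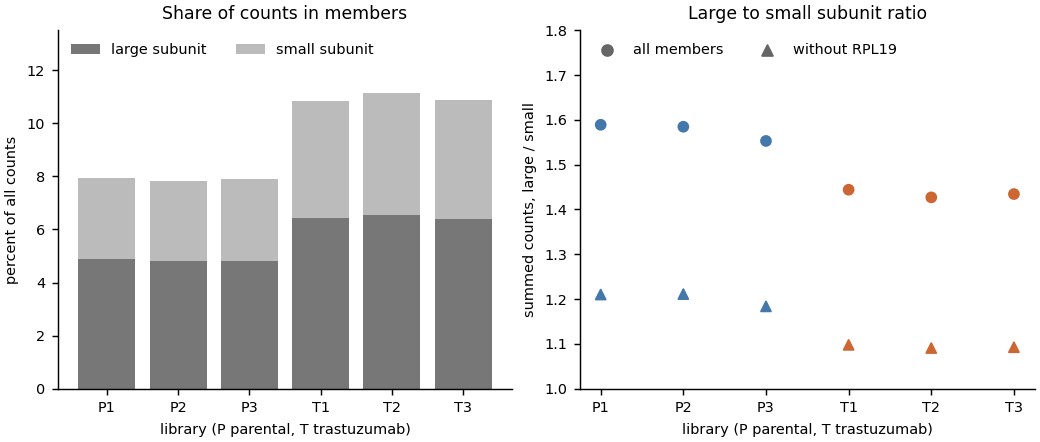
Left, percent of all counts of each library in large-subunit (dark) and small-subunit (light) genes, 3 parental (P) and 3 trastuzumab (T) libraries. Right, the ratio of large to small counts in the same libraries with all members (circles) and without RPL19 (triangles); the axis starts at 1, and each trastuzumab library lies below each parental one on both measures.

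Among the largest rises were those of RPS27, RPS20, RPL9, RPS21 and RPS16. RPS27, a zinc finger protein of the small subunit (ENSG00000177954, hg38 chr1:153990755-153992155), was at 847, 860.4 and 901 CPM in the parental and 1581, 1686 and 1650.2 CPM in the trastuzumab libraries. The 2 groups were far apart, and the log2 fold change was 0.91 ± 0.042 SE (edgeR adjusted p = 7.54e-11). RPS20 (ENSG00000008988, hg38 chr8:56067295-56074581), a protein of the small-subunit head that is ubiquitinated when ribosomes collide, had 457, 461 and 461 CPM, then 865, 866 and 841 CPM. Its parental values were nearly equal, and it rose by 0.90 ± 0.039 (adjusted p = 4.50e-11).

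RPL9, which sits near the site where translation factors bind, went from 315, 301 and 312 CPM to 500.5, 616 and 519.6 CPM. Trastuzumab replicate 2 was the highest of its libraries, and the log2 fold change was 0.82 ± 0.068. RPS21 rose from 339, 355 and 362 CPM to 619, 623 and 616 CPM, with hardly any spread among the trastuzumab libraries. RPS16, whose tail reaches the tRNA in the P site, rose by 0.80 ± 0.042. All of them also rose after correction, where RPL9 had a log2 fold change of 1.11, RPS20 0.99, RPS16 0.58 and RPS21 0.46.

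The P stalk of the large subunit recruits and activates the GTPases of translation, and all 4 of its genes rose. RPLP1 was at 611, 634 and 662 CPM in parental and 1036, 1104 and 1079 CPM in trastuzumab libraries. RPLP0, the stalk's anchor, was at 1277, 1287 and 1337 CPM and then 1998, 2101 and 1975 CPM. RPLP2 was at 532, 536 and 561 CPM and then 798, 875 and 841 CPM. In each of these genes every trastuzumab library lay above every parental one. The log2 fold changes were 0.76 ± 0.043 for RPLP1, 0.64 ± 0.040 for RPLP0 and 0.63 ± 0.044 for RPLP2, and after correction 0.67, 0.42 and 0.23. RPL12, at the base of the stalk, rose less (0.30 ± 0.040, adjusted p = 8.98e-06) and did not pass in the corrected fit (0.06, adjusted p = 0.105).

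RPL5 and RPL11, which join 5S rRNA in a particle that can bind MDM2, both rose. RPL5 was at 794, 792 and 759 CPM and then 979.7, 975 and 999 CPM, and its log2 fold change was 0.33 ± 0.039. RPL11 was at 506, 502 and 482 CPM and then 594, 570.0 and 609 CPM, and its log2 fold change was 0.25 ± 0.042. Neither gene's groups overlapped. Both lay below the members' median of 0.51. After correction RPL5 was at 0.59, above the median of 0.44, and RPL11 at 0.21, below it, and both passed.

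Of 8 proteins that line the exit tunnel of the nascent chain or stand at its rim, 6 rose and 2 did not pass. RPL26, RPL35 and RPL31 had log2 fold changes of 0.58, 0.56 and 0.53. RPL19 followed with 0.48, RPL17 with 0.35 and RPL4, whose loop narrows the tunnel, with 0.34. After correction RPL35 was at 0.13 and RPL19 at 0.20. The exceptions were RPL23A, where the signal recognition particle docks, and RPL39, a small protein of the tunnel wall. RPL23A was at 1432, 1361 and 1415 CPM in parental and 1492, 1403 and 1454 CPM in trastuzumab libraries. RPL39 was at 335, 328 and 346 CPM and then 333, 325 and 346 CPM. Both genes' groups overlapped, with log2 fold changes of 0.05 ± 0.040 (adjusted p = 0.362) and -0.007 ± 0.043 (adjusted p = 0.909). With upper quartile scaling RPL23A passed, at 0.10 (adjusted p = 0.0399). After correction RPL39 was at 0.09 (adjusted p = 0.0632), and it passed with GC offsets alone (0.21, edgeR adjusted p = 0.000345).

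RPL19 stood apart in level. Its deposited FPKM averaged 5752 in parental and 7638 in trastuzumab libraries, while the next of the canonical members was at 1171 and 1937 FPKM. The median canonical member was at 200.9 and 266.5 FPKM. It took 1.16, 1.13 and 1.14% of all counts in parental and 1.54, 1.54 and 1.53% in trastuzumab libraries, with no overlap. It lies on chromosome 17 (ENSG00000108298, hg38 chr17:39200283-39204732), and its start is 487.6 kb from that of ERBB2. ERBB2, the drug's target, had a log2 fold change of 0.48 ± 0.039, and RPL19 one of 0.48 ± 0.034. After correction they were at 0.33 and 0.20. The lower coordinates of RPL23, a further member, and of ERBB2 are 840 kb apart. RPL23 had a log2 fold change of 0.64 ± 0.040, and 0.88 after correction. RPL23 was named after its values were seen, for its position.

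Levels per length ran over a wide range. After RPL19, the tested member with the highest mean FPKM was RPS12, at 1554 FPKM over the 6 libraries. The lowest were the paralog copies RPL3L (0.475 FPKM), RPS27L (1.64 FPKM) and RPL22L1 (11.7 FPKM). FPKM depends on the gene length the authors used, which back-calculation put at 0.735 kb for RPS12 and 9.996 kb for RPS27L. The order of single genes is uncertain to that extent. On CPM per kb of the principal transcript, RPL19 was again the highest member and RPSA came next.

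Proteins around the mRNA entry and exit of the small subunit nearly all rose, 6 of 7. RPS3 and RPS2, at the mRNA entry, had log2 fold changes of 0.77 ± 0.040 and 0.63 ± 0.046, and RPS2 was at 0.23 after correction. Of those near the exit, RPSA, also known as the precursor of the laminin receptor, went from 3676, 3699.8 and 3846 CPM to 6033, 6271 and 5833 CPM. Its groups were well apart. RPS14 had a log2 fold change of 0.69 ± 0.042. RPS28, at 38.3, 48.2 and 46.2 CPM and then 68.6, 77.5 and 81.7 CPM, had one of 0.78 ± 0.088, and 0.41 after correction. The gene that did not pass was RPS26, which contacts the mRNA just upstream of the start codon. It was at 244, 186 and 250.2 CPM and then 260.1, 243 and 241 CPM. Parental replicate 2 was its lowest library, the groups overlapped, and the log2 fold change was 0.13 ± 0.12 (adjusted p = 0.452).

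In the beak of the small subunit, RPS12 and RPS27A rose. RPS12 was at 840.1, 821 and 829.8 CPM and then 1441, 1415 and 1468 CPM, a log2 fold change of 0.80 ± 0.038. The small nucleolar RNA genes SNORA33, SNORD100 and SNORD101 lie inside it on the same strand. RPS27A, which is made as a fusion with ubiquitin, had a log2 fold change of 0.41 ± 0.040. RPS10 is taken up below with the genes that have copies.

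Outside these groups, RPS24 stood with RPL39 among the abundant members that did not pass. It was at 1309.8, 1263 and 1235 CPM in parental and 1270.5, 1246 and 1245 CPM in trastuzumab libraries, and the groups overlapped. Its log2 fold change was -0.02 ± 0.039 (adjusted p = 0.752), and 0.30 in the corrected fit, where it passed (adjusted p = 3.97e-07). RPS24 and RPL39 have the tracts of 14 and 19 bases printed above. RPL7A, with a tract of 16 bases, and RPLP2, with one of 13, rose (log2 fold changes 0.37 and 0.63). Of the 47 tested members with a tract 41 rose, with a median log2 fold change of 0.55, and of 19 without one 15 rose, with a median of 0.39. Of 15 members on a list of genes mutated in Diamond-Blackfan anaemia, 12 rose, against 71 of all 83 tested members. Of 28 members with a small nucleolar RNA gene inside them on the same strand, 25 rose with a median of 0.57, against 46 of 55 with a median of 0.50 among the others. None of these splits was tested.

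Several members that did not pass have pseudogenes or a readthrough gene named after them, and how the counting divided reads between such genes is not given in the sources used here. The tables hold 1608 further genes named after a member, 1605 pseudogenes and 3 readthrough genes, of which 571 had counts. Pseudogenes together took 5.13 ± 0.202 counts per 100 counts of members in parental and 5.11 ± 0.0923 in trastuzumab libraries (SD, n = 3 each), so their share of counts moved with that of the members.

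RPS10, a protein of the beak (ENSG00000124614, hg38 chr6:34417454-34426125), was at 582, 476 and 620.4 CPM in parental and 665, 766 and 900.4 CPM in trastuzumab libraries. It overlaps the readthrough gene RPS10-NUDT3 on the same strand, which was at 50.5, 178 and 39.6 CPM and then 344, 382 and 129 CPM. In each group the library with the most RPS10 held the least of the readthrough gene. RPS10 alone had a log2 fold change of 0.47 ± 0.16 and did not pass (adjusted p = 0.0787). Added up with its named copies, it was at 635, 658 and 663 CPM and then 1012, 1153 and 1034 CPM, the groups were far apart, and the log2 fold change was 0.71 ± 0.049 (adjusted p = 4.73e-09). RPS10 alone passed with DESeq2 (0.48, adjusted p = 0.00902) and without trastuzumab replicate 1 (0.57, edgeR adjusted p = 0.0315).

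RPL29, a large-subunit protein, and the pseudogene RPL29P4 gave a like picture. RPL29 was at 496, 555 and 422 CPM in parental and 709, 809 and 468 CPM in trastuzumab libraries, and the groups overlapped. RPL29P4 was at 140.2, 73.9 and 213 CPM and then 184, 176.5 and 406 CPM, highest in trastuzumab replicate 3, where RPL29 was lowest in its group. The sum of RPL29 and its copies was at 648, 635 and 654 CPM, then 908, 1001 and 905 CPM. The within-group coefficient of variation fell from 21.0% for the gene to 4.26% for the sum, and the log2 fold change was 0.43 ± 0.25 for the gene (adjusted p = 0.252) and 0.54 ± 0.045 for the sum (adjusted p = 4.60e-08). RPL21, whose named copies include the pseudogenes RPL21P16 and RPL21P75, was at 309.8, 305 and 281 CPM and then 371, 323 and 486 CPM. The sum with copies was at 547, 524 and 524 CPM and then 710.5, 693 and 738 CPM, the variation fell from 15.5% to 2.86%, and the sum rose by 0.43 ± 0.042 (adjusted p = 2.53e-07).

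RPL14 varied in the same manner within groups, but its sum did not separate them. The gene was at 604, 486 and 485 CPM and then 471, 538 and 522 CPM, and RPL14P1 at 12.4, 73.9 and 88.6 CPM and then 88.8, 15.1 and 43.7 CPM. The variation fell from 10.4% for the gene to 3.67% for the sum. With RPL14P1 and its other copies it was at 617, 560.1 and 573 CPM and then 559.7, 553 and 566 CPM. The groups overlapped, and neither the gene (-0.04 ± 0.10, adjusted p = 0.789) nor the sum (-0.06 ± 0.044, adjusted p = 0.331) passed. Over all members, adding the copies gave 74 higher, against 24.0% of all genes, and none lower, and 7 members with a variation above 10% became 2. Copies held 55.9% of the sum for RPS28, so the level of that gene alone is uncertain.

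**Figure D4:**
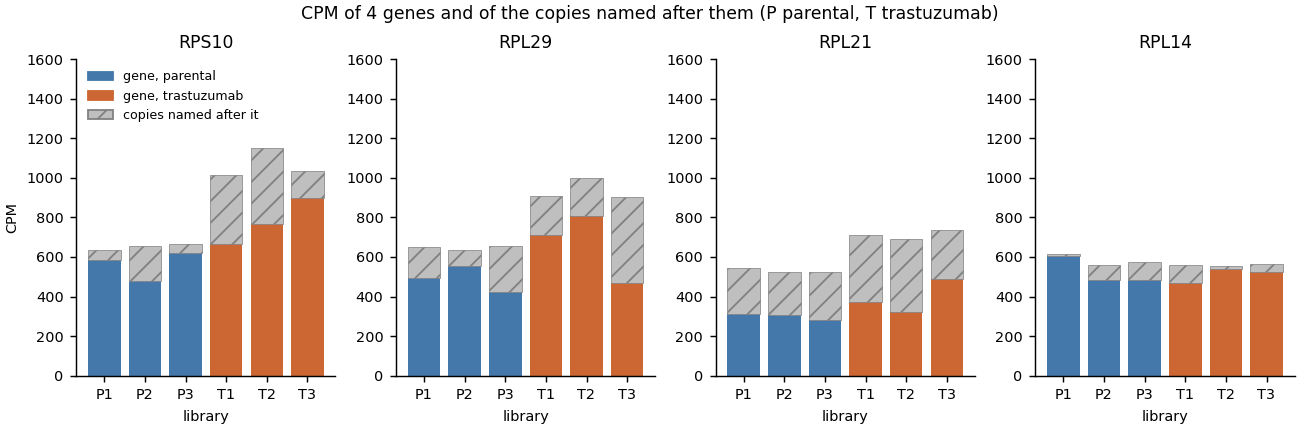
CPM of RPS10, RPL29, RPL21 and RPL14 (solid; blue parental, orange trastuzumab) with the summed CPM of the pseudogenes and readthrough genes named after each (hatched) stacked on top, in 3 parental (P) and 3 trastuzumab (T) libraries. The stacked totals separate the groups for RPS10, RPL29 and RPL21 and overlap for RPL14.

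The paralog copies differed among themselves. Of 7 copies 6 could be tested, 2 rose (RPL22L1 and RPL39L) and 4 did not pass, and their median log2 fold change was -0.08. RPL10L, a gene of the testis, had no counts in 5 libraries and 9 counts in parental replicate 3, and was not tested. Its canonical gene RPL10 rose by 0.23 ± 0.038 and was at 0.01 in the corrected fit (adjusted p = 0.767). Among the 77 other members 69 rose.

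The ratio of copy to canonical gene was compared in 7 pairs, one of them RPL36A with RPL36AL, whose symbol falls outside the rule. In all 7 pairs the groups did not overlap, and each had an exact 2-sided permutation p of 0.1, also after adjustment over the pairs, which is the smallest that 3 against 3 libraries allow. Among all tested genes taken singly, 57.5% had groups that did not overlap. No such share was computed for ratios of other genes. RPS27L stood at 2.04, 1.99 and 2.04% of RPS27 CPM in parental and 1.05, 0.830 and 0.945% in trastuzumab libraries. It was at 17.3, 17.1 and 18.4 CPM itself and then 16.5, 14.0 and 15.6 CPM, so the ratio's log2 difference of -1.11 came with a large rise of RPS27. RPL26L1, nearly identical in protein to RPL26, stood at 4.91, 4.75 and 5.16% of it and then 3.08, 2.97 and 3.29%, a difference of -0.67.

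RPL3L, which replaces RPL3 in striated muscle, was low in every library. It was at 1.77, 2.12 and 1.55 CPM and then 1.03, 1.34 and 1.13 CPM, with a log2 fold change of -0.64 ± 0.27 (adjusted p = 0.0614). RPL3 itself, which helps shape the peptidyl transferase centre, rose by 0.77 ± 0.039 (0.51 after correction), and the log2 ratio differed by -1.40. RPL7L1, a factor of ribosome assembly, was at 4.50, 4.92 and 4.66% of RPL7 and then 4.04, 4.03 and 3.76%, a difference of -0.25. RPL36AL fell from 63.7, 61.1 and 59.4 CPM to 51.4, 50.6 and 49.4 CPM (-0.28 ± 0.058, adjusted p = 0.00061), while RPL36A rose by 0.57 ± 0.050. RPL36AL did not pass in the corrected fit (-0.11, adjusted p = 0.0671).

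For RPL39L and RPL22L1 the ratio went the other way. RPL39L, best known from testis and some tumours, was at 37.9, 37.7 and 39.6 CPM and then 55.3, 62.6 and 58.9 CPM and rose by 0.62 ± 0.065 (adjusted p = 8.01e-07). It stood at 11.3, 11.5 and 11.5% of RPL39 and then at 16.6, 19.3 and 17.0%. RPL22L1, which RPL22 is known to hold down, was at 22.1, 23.4 and 23.1 CPM and then 30.03, 35.9 and 30.3 CPM, with trastuzumab replicate 2 the highest. It rose by 0.49 ± 0.082 (0.81 after correction), RPL22 by 0.20 ± 0.040, and the log2 ratio differed by 0.28. In the corrected fit RPL39L, RPL22L1, RPS27L and RPL7L1 rose and RPL3L fell (-1.01, adjusted p = 0.00644). There too, each copy lay on the same side of its canonical gene's log2 fold change as before correction in all 7 pairs.

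**Figure D5:**
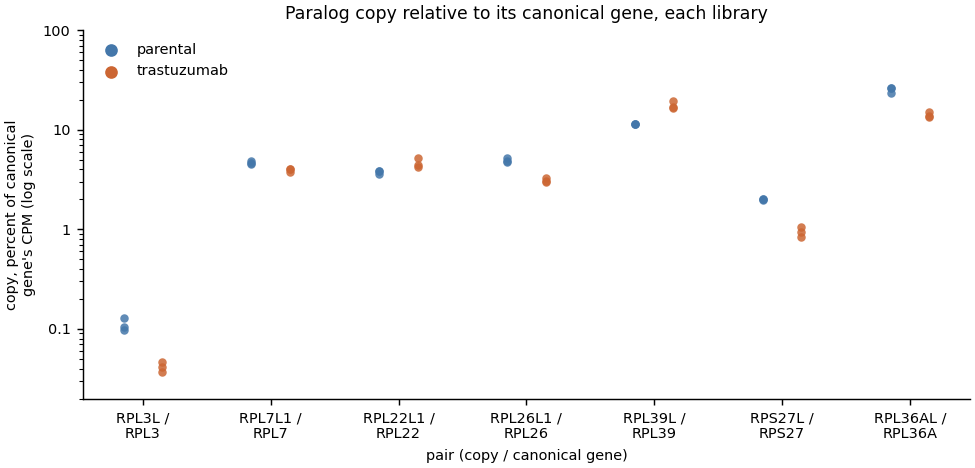
CPM of each paralog copy as a percent of the CPM of its canonical gene, on a log axis, in 3 parental (blue) and 3 trastuzumab (orange) libraries. The trastuzumab libraries lie below the parental ones in 5 pairs and above them for RPL22L1 and RPL39L.

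RPL36AL, which fell, is not the only ribosomal protein with a symbol outside the rule. FAU, a fusion of a ubiquitin-like protein with a small-subunit protein, rose by 0.46 ± 0.049. RACK1, a scaffold on the head of the small subunit, rose by 0.25 ± 0.040. After correction FAU was at 0.10 (adjusted p = 0.0309) and RACK1 at 0.08 (adjusted p = 0.0446).

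Genes that build the ribosome moved in both directions. The totals cover 7 lists of such genes and of regulators of ribosomal protein mRNAs, and the 4 ribosomal proteins outside the rule. Of these 149 tested genes, 59 rose, 51 fell and 39 did not pass. Their median log2 fold change was 0.02. After correction 56 rose and 28 fell. The counts of single lists stand against the 23.9% of all tested genes that rose and the 25.4% that fell (19.0% and 19.1% after correction), and no list was tested against them. Of 16 genes of RNA polymerase I transcription 6 rose and 6 fell, among them RRN3, the initiation factor, which fell from 68.0 ± 3.97 to 44.8 ± 1.81 CPM (SD, n = 3; log2 fold change -0.60, and -0.31 after correction). For small subunit assembly the counts were 12 and 15 of 38, and UTP20 was the lowest, at -0.74 ± 0.059 and -0.23 after correction. Large subunit assembly had 18 and 14 of 42. NOP53, a nucleolar factor of that list that binds the 5S particle, rose from 231 ± 11.3 to 483 ± 27.6 CPM, a log2 fold change of 1.06 ± 0.051. MDN1, a large ATPase of the same list, fell by 0.71 on the log2 scale (-0.38 after correction).

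Proteins of small nucleolar RNPs had 4 higher and 2 lower of 10, with NHP2 at 0.40 ± 0.045 and NOP58 at -0.49 ± 0.074. NHP2 did not pass after correction (0.04, adjusted p = 0.375), where NOP58 was at -0.21, and without trastuzumab replicate 2, 1 of the 10 fell. Chaperones of single ribosomal proteins had 4 and 3 of 9. AAMP rose by 0.43 ± 0.043, which became 0.06 after correction (adjusted p = 0.177), where 1 chaperone gene rose. After correction 4 of the 16 RNA polymerase I genes rose and 3 fell. Small subunit assembly then had 15 higher and 6 lower of 38, and large subunit assembly 17 and 6 of 42. Over all tested genes 19.0% rose and 19.1% fell in that fit.

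Of 16 genes listed for their TOP mRNAs, most of them translation factors, 6 rose and 3 fell. The elongation factor subunits EEF1B2 and EEF1G rose by 0.72 ± 0.043 and 0.56 ± 0.040, and TPT1, the translationally controlled tumour protein, rose from 1259 ± 35.4 to 2063 ± 43.8 CPM. The initiation factor subunit EIF3A fell from 228.5 ± 10.3 to 146.5 ± 3.73 CPM. After correction 11 of the 16 rose and 3 fell, with EEF1G at 0.28, TPT1 at 1.07 and EIF3A at -0.33. Without trastuzumab replicate 2, 1 of them fell.

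Among 14 regulators of ribosomal protein mRNAs and of ribosome surveillance, 6 rose and 7 fell, and after correction 2 rose and 5 fell. MDM2, the ligase that RPL5 and RPL11 bind, was at 92.0, 85.7 and 83.2 CPM and then 43.4, 39.9 and 46.7 CPM, a log2 fold change of -1.004 ± 0.066 (adjusted p = 4.15e-09). Its groups did not overlap, and the call held after correction, at -0.43. LARP4, which binds poly(A) tails, fell by 0.81 on the log2 scale (-0.25 after correction), and MDM4 fell by 0.64 and did not pass after correction (-0.13, adjusted p = 0.276).

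Depth ran from 71015138 to 82857810 counts per library, and a count of 0 allowed at most 0.0372 to 0.0428 CPM (3 counts of a library on the TMM scale, counting error only). Chi-square values per degree of freedom of 20 to 30.9 put each pair of replicates further apart than counting noise. The 5 epithelial markers checked were abundant, from EPCAM at 185 ± 5.91 CPM to ERBB2 at 7925 ± 317 CPM in parental libraries. Of 10 markers of other cell types, COL1A1 was the highest, at 10.1 CPM in parental replicate 2, and the others stayed at or below 3.44 CPM in every library. Their part in the results was not tested. In all, 38 members overlap other tested genes, and for 10 the overlap is on their own strand. How the counting treated strand is not given in the sources used here. These levels may include reads of the neighbour.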

How the data were processed

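Total RNA of 3 parental and 3 trastuzumab SKBR3 libraries was purified on RNeasy columns and sequenced from directional NEBNext Ultra II libraries, per the labels' protocols. The authors deposited raw counts per gene, with no normalization, and FPKM values, scaled by gene length and library total, for 33686 genes. STAR 2.4.2a and hg38 are named by the submitters' processing notes. For the counting program, its strand setting and the annotation nothing is given in the sources used here. GENCODE 29 gave biotypes, positions, GC content and exonic length.

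The main test was the robust quasi-likelihood F test of edgeR 4.0.16 (R 4.3.3) on counts, with TMM scaling, filterByExpr by group and no covariate. Errors are standard errors of log2 fold changes unless named. The corrected fit used offsets from a spline with 5 degrees of freedom on GC content and on exonic length, fitted in each library. Where the trend goes with the group, it also removes changes linked to GC content or length. Copies were genes named after a member with a pseudogene number or a readthrough partner. Paralog ratios used an exact permutation test. Alternatives were DESeq2 1.42.0, limma-voom (limma 3.58.1), limma on log2(FPKM + 1) and log2(FPKM + 0.1) with at least 1 FPKM in 3 libraries, other scaling factors and filters, an adjusted p below 0.01, a replicate block and leaving out each library. Adding copies, GC offsets alone and leaving out RPL19 were chosen after the data were seen. Scripts were tested on simulated data.

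Named genes are both genes of each paralog pair, all members of 5 role groups, the 6 largest rises and 6 largest falls among called members of at least 10 CPM whose groups do not overlap (no member fell), the 3 highest and 3 lowest by mean FPKM, the ribosomal proteins outside the rule, and up to 4 called genes of each other list. RPL8, RPL10A, RPS15, RPS24, RPL14, RPL21, RPL29 and RPL23 were named after their values were seen. The members and all lists were chosen with earlier results of these data known. Some genes that these rules name are not reported here and are not drawn by name, although the counts and medians include them.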

Additional observations from a re-analysis of the deposited data

How the results depend on the processing

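The count of 71 members that rose was between 69 and 74 under every alternative run, from 71 to 73 when 1 library was left out. The count of members that fell was 0, and 0 whichever library was left out. It was 1 with GC and length offsets, with the same offsets and a replicate block, with GC offsets alone and with copies added under these offsets (RPL3L). It was 3 with library totals alone (RPL3L, RPL7L1 and RPS27L) and 2 with limma on FPKM under either pseudocount (RPL7L1 and RPL26L1). The ratio of large to small subunit changed by 0.874 on FPKM in place of 0.911, and by 0.904 to 0.915 when 1 library was left out. Related genes that fell numbered 28 with GC and length offsets in place of 51. RPL39 passed with GC offsets alone, with copies and offsets and with offsets and block (edgeR adjusted p = 0.000345, 0.0134 and 0.0451). Its log2 fold change was 0.21, 0.13 and 0.10 in these fits. That of RPL7L1 was 0.18 in each of the 3 fits with GC and length offsets, and that of RPS27L 0.29, 0.28 and 0.29. BCCIP went to 0.10 and RRP15 to 0.00053 with these offsets. For BCCIP the call was also lost without parental replicate 1 (-0.18). The cause of these shifts was not tested.

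Libraries that share a replicate number had correlations of their deviations of 0.24, -0.017 and 0.031. That of replicate 1 was the highest of all pairs between the groups, next to 0.232 for parental replicate 3 with trastuzumab replicate 2. Parental replicates 2 and 3 did not correlate best with their own number. With the replicate block 73 members rose and none fell, and RPS10 passed (0.47, adjusted p = 0.0156). With 3 libraries a group, an exact test of a single ratio cannot go below p = 0.1.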
